A study of Mus musculus with 10 samples.

Results

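The 35 genes described here encode enzymes and regulators of cholesterol synthesis and of fatty acid synthesis, elongation and desaturation. They were chosen by name as 18 sterol enzyme genes, 5 regulators and 12 fatty acid genes. Each gene was read from its brightest probe set annotated with that symbol alone, and 34 of the 35 had such a probe set. All 34 passed the filter on dim genes (at least 2 arrays with a log2 value no lower than 5), which left 14988 genes in the whole table. Acat2 had no matched probe set and was not analysed here.

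Lung RNA of ICR mice was hybridised to 10 Affymetrix arrays, 1 RNA sample per array. Pups were assigned at random within 12 hours of birth to room air or to 80% oxygen, and lungs were taken at postnatal day 14 (P14) or day 29 (P29). The labels call the room air animals wild type and normal, and the oxygen-exposed animals a model of bronchopulmonary dysplasia (BPD), the chronic lung disease of preterm infants. Every animal was of the ICR strain, nursed by dams that changed between the exposures each day, and exposure lasted until the lungs were taken, so P29 animals had also been exposed for longer. There were 2 arrays of P14 room air, 3 of P14 hyperoxia, 2 of P29 room air and 3 of P29 hyperoxia. The labels do not say whether replicate arrays came from separate animals, so p-values measure the spread between these arrays, which may be technical.

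Cholesterol is built from acetyl-CoA through mevalonate, farnesyl diphosphate, squalene and lanosterol. The transcription factors SREBP-1 and SREBP-2, encoded by Srebf1 and Srebf2, drive these genes: when membrane sterol is low, the escort protein SCAP carries the SREBP precursor to the Golgi for cleavage, and when sterol is high, INSIG proteins hold the complex back. In the lung, alveolar type 2 cells make fatty acids for the phosphatidylcholine of surfactant, and fat cells and lipid-laden fibroblasts also carry much of this machinery. In whole-lung RNA, fewer cells of a type and less RNA per cell cannot be told apart.

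Promoter sequence is shown because many sterol genes changed in the same direction between the ages. The 250 bases before the start site were read from the RefSeq promoter table of mouse build GRCm38.p6, which held 28 of the 35 genes and not Fdps, Fdft1, Sqle, Stard4, Scd1, Scd2 or Fads1. CCAAT, the core of the NF-Y site that often lies beside SREBP sites, was searched on both strands, over any start site of a gene in the table, and found in 14 of 15 sterol enzyme genes (93.3%), 3 of 4 regulators and 5 of 9 fatty acid genes (55.6%). Over all 27025 genes of the table the share was 37.5%. The sterol response element spelled TCACNCCAC was found on either strand in Hmgcs1 alone among the 28, against 1.22% of all genes, and the E-box CACGTG in 6 of the 28, against 6.86% of all genes. These matches describe the letters in the window and do not show binding. Their relation to the changes was not tested. Hmgcs1 was not called with age in room air (0.09 ± 0.12), and Hsd17b7, which fell, also held CCAAT.
The windows are the 200 bases before the start site, 5′ to 3′ on the gene's strand, and capitals mark CCAAT on either strand (ATTGG when reversed) and, in Hmgcs1, the sterol response element.
Hmgcs1, chr13:119690151-119690350, plus strand: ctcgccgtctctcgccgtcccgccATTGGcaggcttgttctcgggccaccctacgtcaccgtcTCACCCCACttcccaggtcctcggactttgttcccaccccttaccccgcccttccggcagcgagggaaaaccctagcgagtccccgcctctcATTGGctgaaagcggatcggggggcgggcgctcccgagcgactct
Idi1, chr13:8885406-8885605, plus strand: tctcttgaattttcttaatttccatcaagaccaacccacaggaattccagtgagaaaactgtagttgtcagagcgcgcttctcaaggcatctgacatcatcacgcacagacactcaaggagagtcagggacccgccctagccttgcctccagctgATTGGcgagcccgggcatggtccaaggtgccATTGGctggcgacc
Msmo1, chr8:64733579-64733778, minus strand: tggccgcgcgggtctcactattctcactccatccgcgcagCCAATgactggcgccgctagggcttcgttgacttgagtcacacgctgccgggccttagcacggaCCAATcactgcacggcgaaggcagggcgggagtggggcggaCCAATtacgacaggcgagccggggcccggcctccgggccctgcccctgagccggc
Acss2, chr2:155517843-155518042, plus strand: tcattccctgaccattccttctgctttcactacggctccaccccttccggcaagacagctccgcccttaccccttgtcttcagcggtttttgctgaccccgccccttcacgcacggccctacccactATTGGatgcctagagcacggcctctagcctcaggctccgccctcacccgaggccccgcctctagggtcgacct
They stand for the step before mevalonate (Hmgcs1), the isoprene units (Idi1), the trimming of lanosterol (Msmo1) and acetyl-CoA supply (Acss2). The window of Msmo1 held 3 CCAAT matches, those of Hmgcs1 and Idi1 held 2 each and that of Acss2 held 1.

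Some properties of the arrays moved with the groups and bear on every value below. The lung markers Sftpc and Scgb1a1 were bright in every group, at mean log2 values of 14.71 to 14.86 for Sftpc and 14.47 to 14.97 for Scgb1a1. The actin control, the log2 value of its 3′ probe set minus that of its 5′ probe set, was 1.75 ± 0.30 (SD, n = 6, 1.33 to 2.21) in hyperoxia and 0.53 ± 0.17 (SD, n = 4, 0.32 to 0.74) in room air. The ranges did not overlap (exact permutation test over 210 regroupings, two-sided, p = 0.00476). Sex-linked transcripts followed age in room air: both P14 arrays had low Xist (6.85 and 6.63) and Y-linked signal, and both P29 arrays had high Xist (12.48 and 12.66) and a Y-linked mean near the floor (4.04 and 3.57). All 3 P14 hyperoxia arrays had low Xist and Y-linked signal. Of the P29 hyperoxia arrays, replicate 1 had Y-linked signal (8.51) with low Xist (7.12), replicate 2 the reverse (3.47 and 12.54), and replicate 3 had both (7.71 and 11.94).

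Probe sets of the same gene did not give the same answer on hyperoxia. Among the 22 genes with several bright probe sets, the log2 differences of a gene's probe sets spanned a median of 0.63 at P14 and 0.81 at P29 for hyperoxia against room air, but 0.20 between the ages in room air and 0.26 between the ages in hyperoxia. Over all 7109 such genes the medians were 0.56, 0.56, 0.26 and 0.20. Elovl1, which elongates very long chains, shows the pattern: its 4 probe sets rose with age in room air by 0.92, 0.92, 0.92 and 0.97, yet differed between hyperoxia and room air at P14 by 0.00, -0.16, -1.15 and 0.62. Probe sets were called in opposite directions for 6 of the 22 members at P14 (Fdft1, Scd2, Elovl1, Fads1, Fads2, Thrsp), against 16.6% of all such genes, and for 6 at P29 (Fdft1, Msmo1, Hsd17b7, Elovl1, Elovl6, Fads2), against 15.5%. The part of the actin difference and of the sex-linked pattern in the results was not tested. Counts from fits with either as a term are given with the hyperoxia counts of the members. The age counts are given with the Y-linked term only. No count from such a fit was made for other pathway genes or cell type markers.

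**Figure D1:**
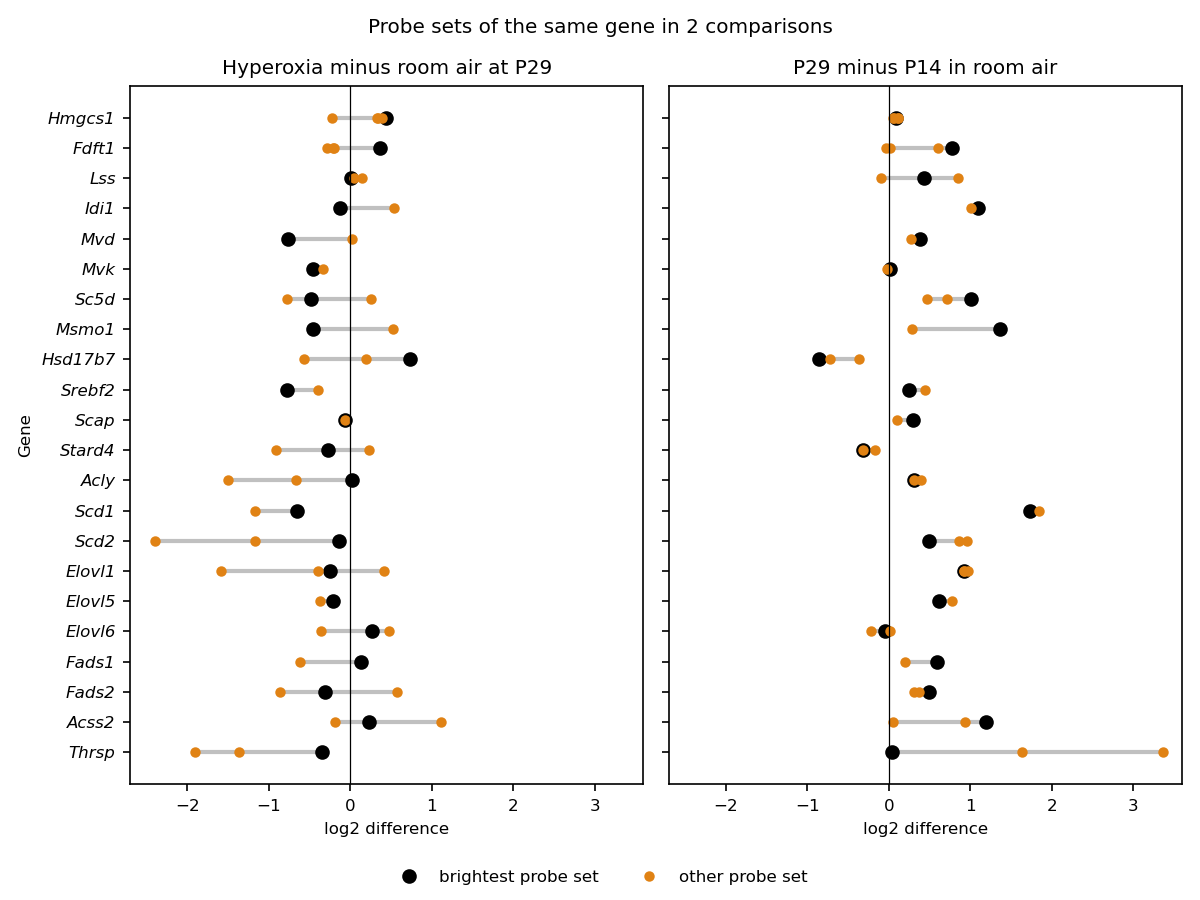
Each row is 1 of the 22 members with several bright probe sets, and each point is the log2 difference of 1 probe set, black for the brightest and orange for the others, with a grey line over their range; the left panel plots hyperoxia minus room air at P29 and the right panel P29 minus P14 in room air. The points of a gene lie apart by a median of 0.81 on the left and 0.20 on the right, and the 3 points of Thrsp lie far apart in both panels.

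Between P14 and P29 in room air, most sterol and fatty acid genes rose. Of 34 genes, 24 were higher and 2 were lower at P29 (limma, adjusted p under 0.05), where 22.2% of all genes tested were higher and 19.1% lower. On the brightest probe sets, the largest increases were those of Scd1 (3.33-fold), Msmo1 (2.56-fold), Acss2 (2.28-fold), Idi1 (2.13-fold) and Sc5d (2.01-fold). By group, 11 of 17 sterol enzyme genes, 4 of 5 regulators and 9 of 12 fatty acid genes were higher, with median log2 differences of 0.54, 0.30 and 0.60 against 0.01 over all genes. Hsd17b7 and Stard4 were the 2 genes that fell, and the call of Stard4 (-0.32) was lost in 6 of 10 fits without 1 array, with the actin term (-0.31) and on the mean of all probe sets (-0.27). The sexes shown by Xist changed with age in these 4 arrays, so age and sex cannot be told apart in room air; with the Y-linked mean as a term, 6 sterol enzyme genes, 1 regulator and 9 fatty acid genes were higher. Called on every bright probe set, in a fit over all bright probe sets, were 7 sterol enzyme genes (Fdps, Sqle, Cyp51, Idi1, Sc5d, Ebp, Tm7sf2) and 5 fatty acid genes (Fasn, Acaca, Scd1, Elovl1, Elovl5). Only Idi1 and Sc5d of these sterol enzyme genes, and Scd1, Elovl1 and Elovl5 of the fatty acid genes, have several bright probe sets. Without P29 room air replicate 2, 7 sterol enzyme genes were higher. Without P14 room air replicate 1, Insig1, Srebf2 and Scap lost the call, which left 1 regulator higher.

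Between P14 and P29 in hyperoxia, 20 of 34 genes were higher and none was lower, where 15.4% of all genes were higher and 11.7% lower. The count was 13 of 17 sterol enzyme genes (median log2 difference 0.43), 0 of 5 regulators (median 0.14) and 7 of 12 fatty acid genes (median 0.37), with a median of 0.01 over all genes. Of the regulators, Stard4 and Insig1 had unadjusted limma p-values of 0.0174 and 0.0287. On its brightest probe set, no member had an unadjusted limma p under 0.05 for a lower value at P29. Another bright probe set of Acss2 was called lower, against its brightest, and the mean of all probe sets of Acss2 gave 0.11, not called. On the mean of all probe sets 2 regulators, Srebf2 and Stard4, were called higher; their other probe sets gave up to 0.45 and 1.0. Scd1 (2.06-fold), Sc5d (1.64-fold), Elovl1 (1.60-fold) and Msmo1 (1.54-fold) had the largest increases. The sterol enzyme count was 8 without P29 hyperoxia replicate 1 and 8 without P29 hyperoxia replicate 2. Setting the P14 arrays against P29 hyperoxia replicate 1 alone, whose sex-linked transcripts match theirs, left 5 sterol enzyme genes and 4 fatty acid genes higher, and the fit with the Y-linked term gave 8 and 6.

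**Figure D2:**
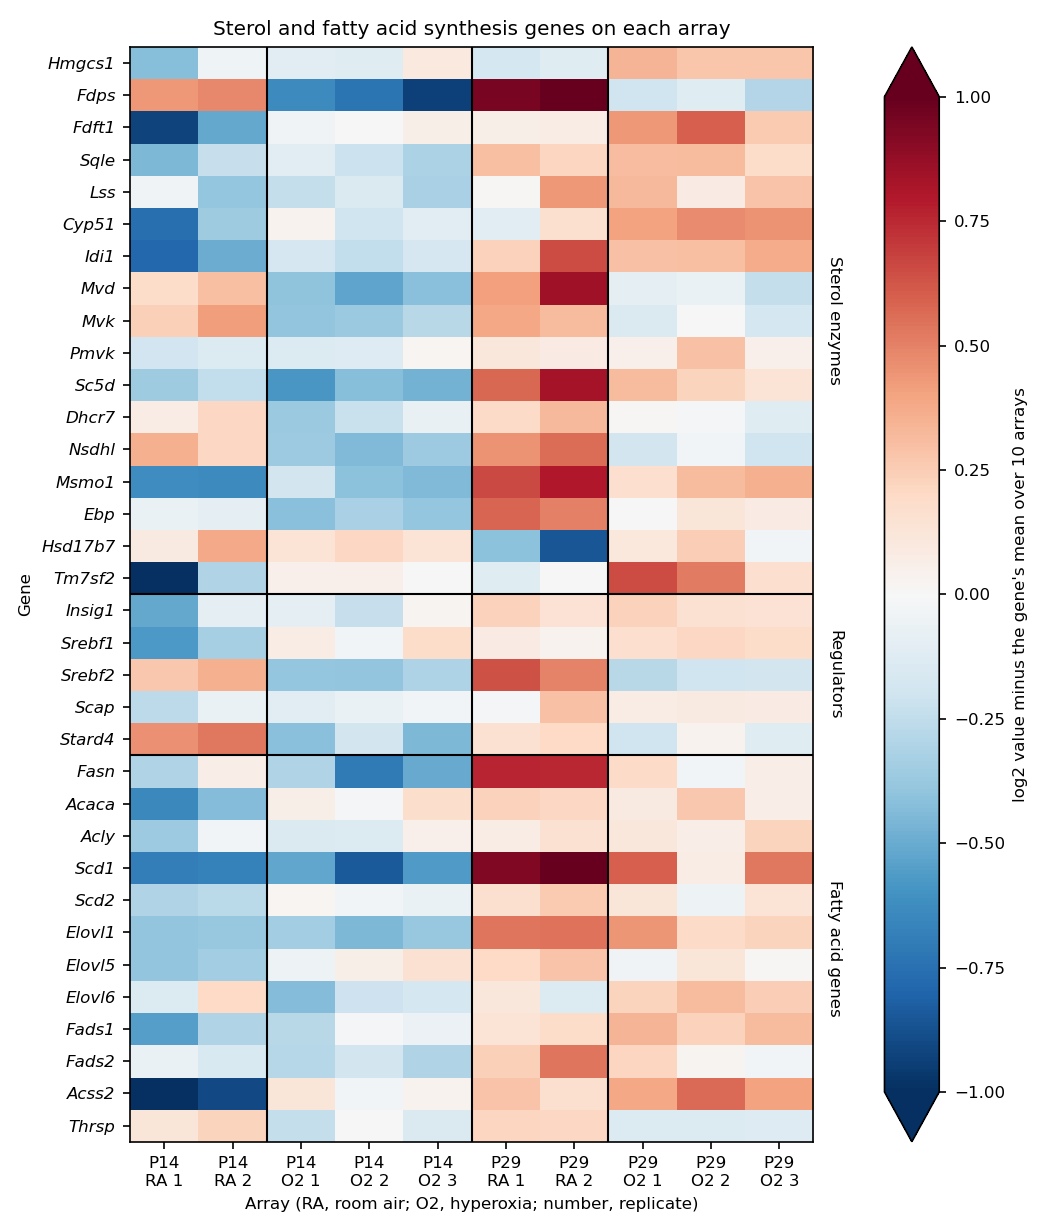
Rows are the 34 measured genes in 3 groups and columns the 10 arrays (RA, room air; O2, hyperoxia); colour is the log2 value minus the gene's mean over the 10 arrays, red above and blue below, with values past 1 in either direction shown at the end of the scale. The P29 columns are redder than the P14 columns for most rows, while Fdps, Srebf2, Nsdhl and Mvk separate the room air columns from the hyperoxia columns at both ages.

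The sterol enzyme genes moved in both directions in hyperoxia at both ages, with a share higher (29.4% at each age) near that of all genes. At P14, 5 of 17 were higher and 6 lower than in room air, where 32.3% of all genes were higher and 22.8% lower; the median log2 difference was -0.03, against 0.04 over all genes. At P29, 5 were higher and 8 lower, where 34.2% of all genes were higher and 25.6% lower, with a median of -0.12. With the actin control as a term, 0 were higher and 3 lower at P14 (Fdps, Mvk, Dhcr7), and 0 were higher and 5 lower at P29 (Fdps, Mvd, Mvk, Dhcr7, Nsdhl). With the Y-linked term, 5 were higher and 6 lower at P14, and 4 were higher and 7 lower at P29. Called the same way on every bright probe set were Cyp51, Idi1 and Tm7sf2 (higher) with Fdps, Mvk, Dhcr7, Nsdhl and Ebp (lower) at P14, and Cyp51 and Tm7sf2 with the same 5 lower genes at P29. Only Idi1 and Mvk of these 8 genes have several bright probe sets; for the rest the call is that of a single probe set. Without P14 room air replicate 1, 1 gene was higher at P14; at P29, 2 were higher without P29 room air replicate 1, 3 without P29 room air replicate 2 and 3 without P29 hyperoxia replicate 2. The share of calls that were higher over all genes depended on the scaling: 58.6% at P14 and 57.2% at P29 as deposited, 52.7% and 51.4% after quantile normalization, and 44.9% and 41% with each array set to its 75th percentile, a scaling under which the median of all genes was -0.10 at P29.

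**Figure D3:**
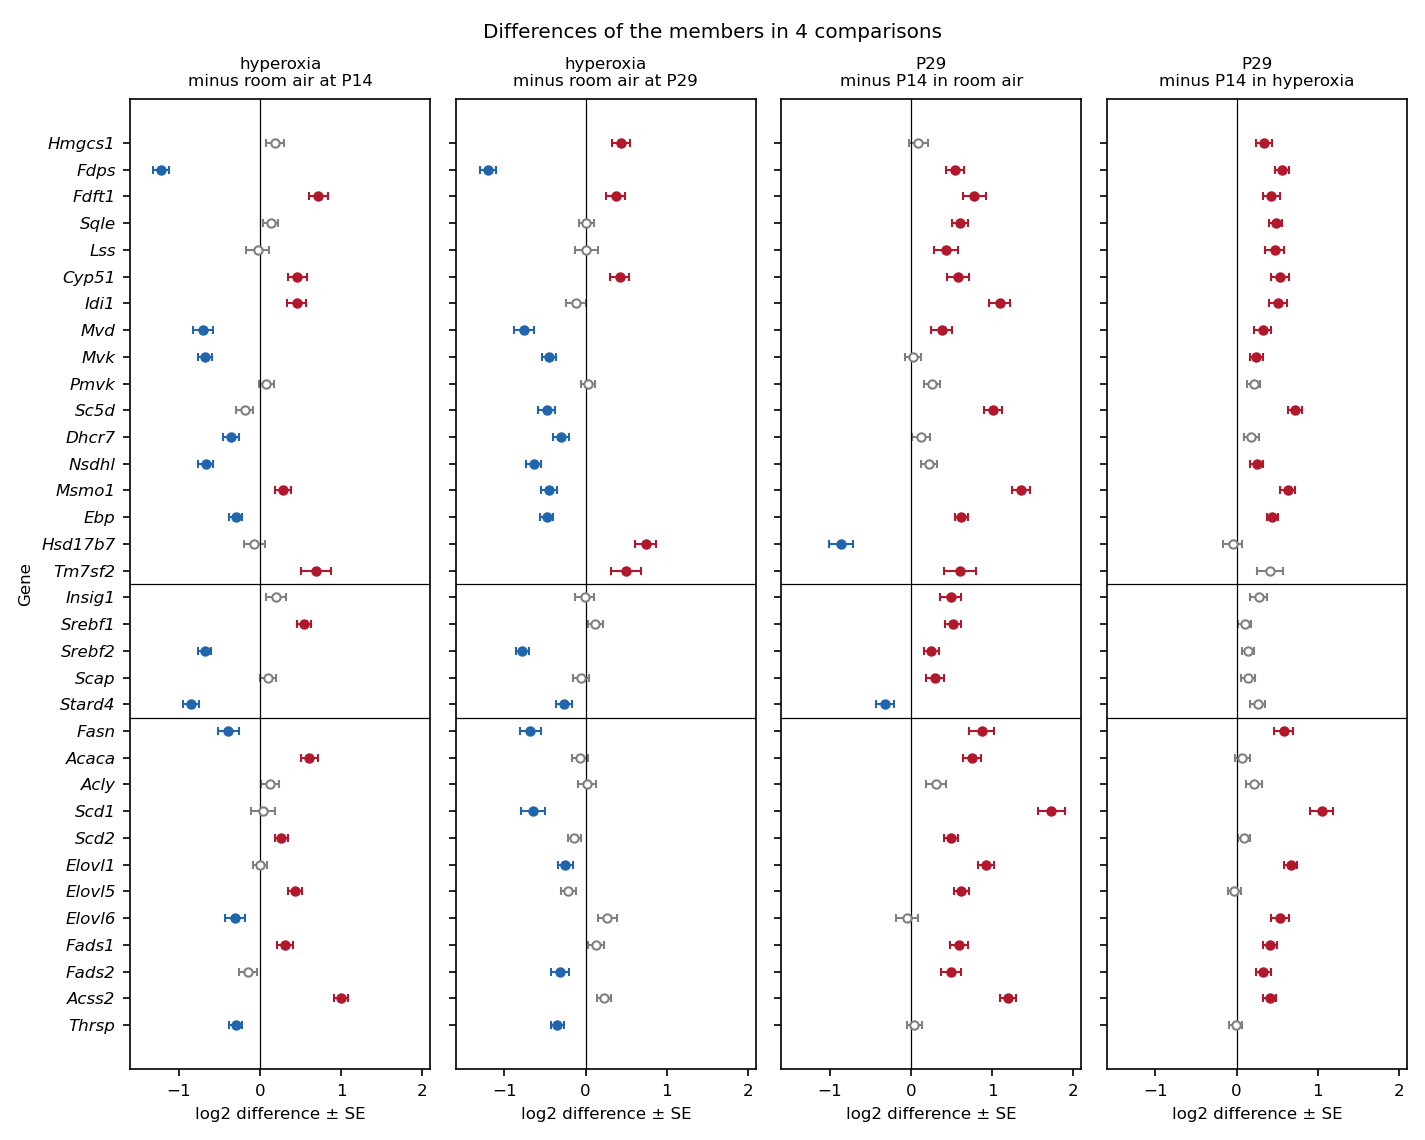
Points are log2 differences of the 34 genes with their standard errors, in 4 panels (hyperoxia minus room air at P14 and at P29, P29 minus P14 in room air and in hyperoxia); red and blue points are higher and lower at an adjusted p under 0.05, open grey points are not called, and lines divide sterol enzymes, regulators and fatty acid genes. In the 2 age panels 24 and 20 genes are red, while the 2 hyperoxia panels hold both colours, with Fdps lowest at -1.22 and -1.20.

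Among the steps up to farnesyl diphosphate, Fdps was the clearest. It encodes the synthase that makes farnesyl diphosphate, the branch point to sterols, ubiquinone and prenylated proteins. Its log2 values were 8.99 and 9.04 in P14 room air, 7.92, 7.83 and 7.63 in P14 hyperoxia, 9.51 and 9.61 in P29 room air, and 8.36, 8.44 and 8.27 in P29 hyperoxia. Every hyperoxia array was below every room air array of either age. The differences were -1.22 ± 0.10 (SE) at P14 (adjusted p = 5.61e-06) and -1.20 ± 0.10 at P29 (adjusted p = 2.96e-06), a 2.33-fold and a 2.30-fold reduction. Both stayed called in each of the 10 fits without 1 array and with the actin term, and the gene has 1 bright probe set.

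Mvk and Mvd, the kinase and the decarboxylase of mevalonate, were lower as well. Mvk was at 7.70 and 7.88 in P14 room air against 7.07, 7.09 and 7.19 in hyperoxia, and at 7.85 and 7.78 in P29 room air against 7.32, 7.47 and 7.29. The groups did not overlap at either age, and the differences were -0.68 ± 0.09 and -0.45 ± 0.09 (adjusted p = 0.000123 and 0.00133). Its second probe set was lower too, by 0.52 and 0.33 on the log2 scale at a called difference. Mvd was at 7.40 and 7.52 against 6.81, 6.69 and 6.80 at P14 and at 7.63 and 8.06 against 7.12, 7.15 and 6.98 at P29, differences of -0.70 ± 0.12 and -0.76 ± 0.12 (adjusted p = 0.000616 and 0.000281). The second probe set of Mvd gave -0.27 and 0.02, neither called, so its reduction rests on 1 probe set.

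Idi1, the isomerase that supplies the starter isoprene unit, was the member of this stretch whose hyperoxia effect differed between the ages. It was at 8.55 and 8.84 in P14 room air, 9.17, 9.09 and 9.17 in P14 hyperoxia, 9.57 and 9.99 in P29 room air and 9.63, 9.64 and 9.71 in P29 hyperoxia. Hyperoxia arrays were all above room air at P14 (0.45 ± 0.12, adjusted p = 0.0085) and lay within the room air range at P29 (-0.12 ± 0.12, adjusted p = 0.395). The difference of the effects was -0.58 ± 0.17 (adjusted p = 0.0323) and was lost in 6 of 10 fits without 1 array, with values from -0.78 to -0.37 over all 10; for example, it was -0.43 without P14 room air replicate 1 and -0.37 without P29 room air replicate 2. Its other probe set was higher at both ages, by 0.89 and 0.54. Hmgcs1, the synthase whose product is reduced to mevalonate, was called at P29 (0.44 ± 0.11, adjusted p = 0.00549) and not at P14 (0.19 ± 0.11, adjusted p = 0.163) on its brightest probe set. Of its 4 other probe sets, 2 were called higher at P14 (0.29 and 0.27), 1 gave 0.11 and 1 gave -0.22, neither called. Pmvk, phosphomevalonate kinase, gave 0.08 ± 0.09 and 0.03 ± 0.09 and was called in no comparison.

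From squalene on, Fdft1, which joins farnesyl units to squalene, was at 8.40 and 8.81 in P14 room air, 9.29, 9.32 and 9.38 in P14 hyperoxia, 9.38 and 9.40 in P29 room air and 9.76, 9.92 and 9.59 in P29 hyperoxia. Its brightest probe set was higher in hyperoxia by 0.72 ± 0.12 at P14 (adjusted p = 0.000605) and 0.37 ± 0.12 at P29 (adjusted p = 0.023). The 3 other probe sets gave -0.57, -0.24 and -0.11 at P14 and -0.21, -0.20 and -0.29 at P29, so no direction on hyperoxia holds for this gene across its probe sets. With age in room air the probe sets gave 0.78, 0.61, 0.02 and -0.03. Lss, which closes the ring to lanosterol, had arrays at 7.11 and 6.76 in P14 room air, 6.91, 7.0 and 6.82 in P14 hyperoxia, 7.16 and 7.58 in P29 room air, and 7.47, 7.23 and 7.43 in P29 hyperoxia. Its hyperoxia groups overlapped the room air groups at both ages (-0.03 ± 0.14 and 0.01 ± 0.14), whereas 1 of its other probe sets was higher by 1.0 at P14. Sqle, the squalene epoxidase, gave 0.13 ± 0.09 and 0.01 ± 0.09, neither called.

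Msmo1 and Sc5d, an oxidase that removes methyl groups from lanosterol products and the desaturase of a late step, rose with age in both exposures, Msmo1 the most of the sterol enzymes in room air and Sc5d the most in hyperoxia. Msmo1 was at 7.91 and 7.90 in P14 room air, 8.35, 8.12 and 8.09 in P14 hyperoxia, 9.19 and 9.33 in P29 room air, and 8.70, 8.85 and 8.89 in P29 hyperoxia. Hyperoxia arrays lay above room air at P14 (0.28 ± 0.10, adjusted p = 0.0332) and below it at P29 (-0.45 ± 0.10, adjusted p = 0.0029), and the difference of the effects was -0.73 ± 0.14 (adjusted p = 0.00409). That difference stayed called in each of the 10 fits without 1 array and with the actin term, but both hyperoxia values lost the call with the actin term (0.46 at P14 and -0.28 at P29). The P14 call was also lost without P14 room air replicate 1 (0.29), P14 room air replicate 2 (0.28) or P14 hyperoxia replicate 1 (0.20), and on the mean of all probe sets the P29 value was 0.04 and the difference of effects -0.25, neither called. The second probe set of Msmo1 was higher in hyperoxia at P29, by 0.53, and its difference of effects was 0.24 and not called. With age that probe set gave 0.29 in room air, not called, and 0.53 in hyperoxia, called. The mean of all probe sets of Msmo1 rose with age in room air by 0.82. Sc5d was at 8.05 and 8.16, then 7.82, 7.98 and 7.93 at P14, and at 8.98 and 9.24, then 8.72, 8.63 and 8.54 at P29, room air first. It rose with age by 1.01 ± 0.11 in room air (adjusted p = 2.39e-05) and 0.72 ± 0.09 in hyperoxia (adjusted p = 0.000195), and was lower in hyperoxia at P29 by 0.48 on the log2 scale. Its 2 other probe sets gave -0.78 and 0.26 there.

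Nsdhl and Ebp, a dehydrogenase and an isomerase of the middle steps, were lower in hyperoxia at both ages, each on its single bright probe set. Nsdhl was at 9.24 and 9.09 against 8.52, 8.44 and 8.52 at P14 and at 9.33 and 9.44 against 8.70, 8.85 and 8.68 at P29 (-0.67 ± 0.09 and -0.64 ± 0.09, adjusted p = 0.000108 and 0.000101). Ebp was at 9.23 and 9.21 against 8.88, 8.97 and 8.91 at P14 and at 9.88 and 9.80 against 9.29, 9.42 and 9.38 at P29 (-0.30 ± 0.08 and -0.48 ± 0.08, adjusted p = 0.00673 and 0.000321). No hyperoxia array of either gene reached a room air array of the same age. With the actin term the estimates were -0.71 for Nsdhl at P14 and -0.30 and -0.48 for Ebp, and these 3 were no longer called. Dhcr7, the last reductase of one branch, was lower by 0.36 and 0.30 on the log2 scale. Tm7sf2, a reductase that acts after Cyp51, was higher by 0.69 ± 0.18 and 0.50 ± 0.18, and Cyp51, the lanosterol demethylase, by 0.46 ± 0.12 and 0.42 ± 0.12.

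Hsd17b7, a ketoreductase of sterol synthesis that also acts on oestrone, was the sterol enzyme gene that fell with age in room air. It was at 8.66 and 8.95 in P14 room air, 8.71, 8.78 and 8.71 in P14 hyperoxia, 8.16 and 7.72 in P29 room air, and 8.68, 8.82 and 8.55 in P29 hyperoxia. The 2 P29 room air arrays were lower than all others. It fell with age in room air by 0.86 on the log2 scale (adjusted p = 0.000649), was higher in hyperoxia at P29 (0.74 ± 0.13, adjusted p = 0.000697), and the effects differed by 0.81 ± 0.19 (adjusted p = 0.0103); without P14 room air replicate 2 that difference was 0.67 and not called. Its probe sets gave 0.74, 0.20 and -0.57 for hyperoxia at P29, and -0.86, -0.72 and -0.37 for age in room air.

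Of the 5 regulators, 1 was higher and 2 lower in hyperoxia at P14, where 32.3% of all genes were higher and 22.8% lower. At P29, 0 were higher and 2 lower, where 34.2% of all genes were higher and 25.6% lower. No regulator had an unadjusted limma p under 0.05 for a higher value at P29. With the actin term Srebf2 alone was called, lower at each age, and with the Y-linked term the P29 count was 1 lower. Srebf2, whose product mainly drives sterol genes, was lower in hyperoxia at both ages. It was at 9.04 and 9.12 in P14 room air, 8.38, 8.37 and 8.46 in P14 hyperoxia, 9.40 and 9.26 in P29 room air, and 8.49, 8.57 and 8.58 in P29 hyperoxia. All 6 hyperoxia arrays were below all 4 room air arrays, with differences of -0.68 ± 0.08 and -0.78 ± 0.08 (adjusted p = 5.4e-05 and 1.29e-05). Its second probe set was lower by 0.40 at each age, and both calls stayed with the actin term. Its rise with age in room air (0.25 ± 0.09, adjusted p = 0.0386) was lost in 7 of 10 fits without 1 array and was 0.18 without P29 room air replicate 1. Srebf1, whose product mainly drives fatty acid genes, was at 9.33 and 9.57 in P14 room air and 9.98, 9.88 and 10.09 in P14 hyperoxia, then 9.99 and 9.94 in P29 room air and 10.07, 10.11 and 10.09 in P29 hyperoxia. It was higher in hyperoxia at P14 (0.54 ± 0.09, adjusted p = 0.000671) and not called at P29 (0.12 ± 0.09, adjusted p = 0.282). The effects differed by -0.42 ± 0.13 (adjusted p = 0.0428), a call lost in 8 of 10 fits without 1 array, with values from -0.54 to -0.29. With the actin term its P14 difference was 0.28 and not called.

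Insig1 and Scap, the sterol-sensing pair, were not called in either hyperoxia comparison. Insig1, itself a target of SREBP, was at 7.96 and 8.38 in P14 room air, 8.37, 8.24 and 8.50 in P14 hyperoxia, 8.70 and 8.61 in P29 room air, and 8.70, 8.62 and 8.61 in P29 hyperoxia. It rose with age in room air by 0.49 ± 0.13 (adjusted p = 0.0119), which was 0.28 and not called without P14 room air replicate 1 and 0.44 and not called without P29 room air replicate 1. Scap was at 8.67 and 8.86, then 8.82, 8.86 and 8.90 at P14, and at 8.92 and 9.22, then 9.0, 9.02 and 9.01 at P29, room air first, and its groups overlapped at both ages. Its rise with age in room air (0.30 ± 0.11, adjusted p = 0.0421) was lost in 8 of 10 fits without 1 array, and was 0.15 without P29 room air replicate 2.

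Stard4, a carrier that moves cholesterol between membranes, was at 9.93 and 10 in P14 room air, 9.05, 9.29 and 9.02 in P14 hyperoxia, 9.62 and 9.67 in P29 room air, and 9.27, 9.51 and 9.35 in P29 hyperoxia. It was lower in hyperoxia at P14 by 0.85 on the log2 scale (adjusted p = 7.16e-05) and at P29 by 0.27 (adjusted p = 0.0395), and the effects differed by 0.57 ± 0.15 (adjusted p = 0.0159). The P29 call was lost in 4 of 10 fits without 1 array (-0.34 to -0.22 over all 10), among them without P29 hyperoxia replicate 1 (-0.22), and the difference of the effects was 0.54 and not called without P14 room air replicate 2 and 0.55 and not called without P29 room air replicate 1. The hyperoxia differences of Stard4 were -0.78 and -0.21 with the actin term, neither called. The P29 difference was -0.14 and not called both with the Y-linked term and with the sex-matched P29 array. Its other probe sets gave -2.09 and -0.19 at P14 and -0.91 and 0.23 at P29.

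The fatty acid genes showed a different balance at the 2 ages. At P14, 5 of 12 were higher in hyperoxia (Acaca, Scd2, Elovl5, Fads1, Acss2) and 3 lower (Fasn, Elovl6, Thrsp). These shares, 41.7% and 25%, are near the 32.3% and 22.8% of all genes, and the median log2 difference was 0.08. At P29, 0 were higher and 5 lower (Fasn, Scd1, Elovl1, Fads2, Thrsp), with a median of -0.18. At that age 34.2% of all genes were higher and 25.6% lower. Acss2 and Elovl6 had higher values at P29 with unadjusted limma p-values of 0.0304 and 0.0461, which did not pass the adjustment. Tested directly, the effect at P29 was lower than that at P14 for 5 genes (Acaca, Scd1, Scd2, Elovl5, Acss2) and higher for 1 (Elovl6), where 11.6% of all genes were lower and 11% higher; among the sterol enzymes 2 were lower and 1 higher. With the actin term the difference of effects was lower for 4 fatty acid genes and higher for 1, whereas 1 gene (Acss2) was higher at P14 and 0 genes were called at P29. With the Y-linked term, 5 were higher and 2 lower at P14, and 1 was higher and 4 lower at P29. Both bright probe sets of Elovl5 were called lower in the difference of effects. The difference compares all 4 groups, and it and both age comparisons share the same room air arrays with the hyperoxia comparisons. Without P14 room air replicate 1, 3 genes were higher at P14, and without P14 room air replicate 2, 0 were lower; without P14 hyperoxia replicate 2, 1 was lower. Without P29 room air replicate 2, 3 genes were lower at P29; 2 genes were higher at P29 without either P14 room air array and 1 without P29 room air replicate 1. Leaving out either P14 room air array, P14 hyperoxia replicate 1 or P29 room air replicate 2 left 3 genes lower in the difference of effects.

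Acss2, which makes acetyl-CoA from acetate, had the largest hyperoxia increase of the set. It was at 7.53 and 7.66 in P14 room air, 8.68, 8.53 and 8.60 in P14 hyperoxia, 8.85 and 8.72 in P29 room air, and 8.95, 9.13 and 8.96 in P29 hyperoxia. The 2 P14 room air arrays were more than 0.8 below all others. The hyperoxia difference was 1.0 ± 0.09 at P14 (adjusted p = 1.19e-05) and 0.23 ± 0.09 at P29 (adjusted p = 0.0508), and the effects differed by -0.78 ± 0.13 (adjusted p = 0.00153), called in each of the 10 fits without 1 array. A second probe set was higher by 1.79 and 1.11 and also gave a called difference of effects of -0.68; the third gave 0.19 and -0.19, neither called.

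Acaca, the carboxylase that makes malonyl-CoA, was at 8.31 and 8.52 in P14 room air, 9.01, 8.94 and 9.13 in P14 hyperoxia, 9.18 and 9.16 in P29 room air, and 9.04, 9.22 and 9.02 in P29 hyperoxia. As with Acss2, the P14 room air arrays stood below the rest: hyperoxia gave 0.61 ± 0.10 at P14 (adjusted p = 0.0004) and -0.07 ± 0.10 at P29, and the effects differed by -0.68 ± 0.14 (adjusted p = 0.00491). Acaca has 1 bright probe set; the mean over all its probe sets, dim ones included, gave 0.01 at P14 and -0.30 for the difference, neither called. With the sex-matched P29 array the difference was -0.55 and not called. Elovl5, the elongase of polyunsaturated chains, was at 11.88 and 11.93 in P14 room air, 12.23, 12.34 and 12.43 in P14 hyperoxia, 12.48 and 12.56 in P29 room air, and 12.24, 12.40 and 12.29 in P29 hyperoxia. It was higher in hyperoxia at P14 (0.43 ± 0.09, adjusted p = 0.00162), and at P29 all 3 hyperoxia arrays were below room air without a call (-0.21 ± 0.09, adjusted p = 0.0536). The effects of Elovl5 differed by -0.64 ± 0.12 (adjusted p = 0.00349), and its second probe set gave 0.48, -0.37 and a difference of -0.85, all called. In hyperoxia the level of Elovl5 changed with age by -0.03 ± 0.08, against 0.62 ± 0.09 in room air. With the actin term, the P14 differences of Acaca and Elovl5 were 0.34 and 0.14, not called.

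**Figure D4:**
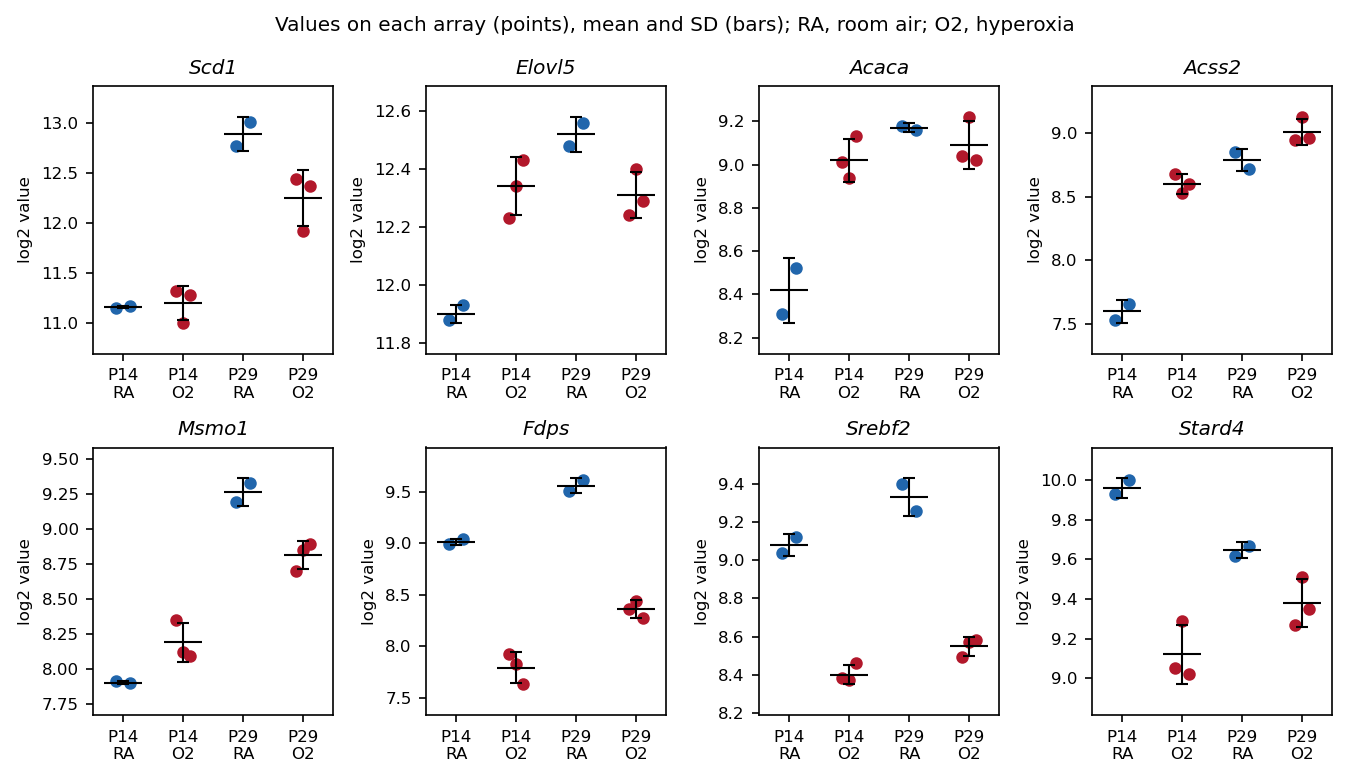
Each panel is 1 gene, with a point for each array (blue, room air, RA; red, hyperoxia, O2), the mean as a horizontal line and the SD as bars, on its own log2 axis that does not start at 0. The P14 room air points of Acss2, Acaca and Elovl5 lie below the other groups, the P29 room air points of Scd1 and Msmo1 lie highest, and the hyperoxia points of Fdps and Srebf2 lie below room air at both ages.

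Fasn, the synthase that builds palmitate, and Scd1, the desaturase that makes oleate, were lower in hyperoxia at P29. Fasn was at 9.92 and 10.28 in P14 room air, 9.92, 9.51 and 9.71 in P14 hyperoxia, 10.98 and 10.97 in P29 room air, and 10.41, 10.19 and 10.28 in P29 hyperoxia. Its P29 difference was -0.68 ± 0.13 (adjusted p = 0.00113); at P14 it was -0.39 ± 0.13 (adjusted p = 0.0281), a call lost in 3 of 10 fits without 1 array, with -0.21 without P14 room air replicate 2. Scd1 was at 11.15 and 11.17 in P14 room air, 11.32, 11 and 11.28 in P14 hyperoxia, 12.77 and 13.01 in P29 room air, and 12.44, 11.92 and 12.37 in P29 hyperoxia. It rose with age by 1.73 ± 0.17 in room air (adjusted p = 1.02e-05) and 1.05 ± 0.14 in hyperoxia (adjusted p = 0.000273), and was lower in hyperoxia at P29 by 0.65 on the log2 scale (adjusted p = 0.00378). Its second probe set gave 1.85, 0.79 and -1.17 for the same comparisons. The difference of effects of Scd1, -0.69 ± 0.22 (adjusted p = 0.0402), was lost in 5 of 10 fits without 1 array and was -0.57 without P29 room air replicate 2. With the actin term the P29 estimates were -0.63 for Fasn and -0.72 for Scd1, not called.

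Markers of fat cells also differed between the groups, as did markers of type 2 cells and macrophages given below. Adipoq, the fat cell hormone adiponectin, was at 7.98 and 7.05 in P29 room air, 4.99, 4.28 and 4.55 in P29 hyperoxia, and between 3.85 and 4.14 on the 5 P14 arrays. Of 8 fat cell markers named, 4 were measured. All 4 (Adipoq, Fabp4, Cidec, Retn) were higher in P29 than P14 room air, where 22.2% of all genes were higher. All 4 were also lower in hyperoxia at P29, where 25.6% of all genes were lower. Adipoq and Cidec reached a log2 of 5 on the P29 room air arrays alone. They passed the filter only through the group in which they were high. The mean of the 4 markers per array was 7.07 to 7.56 in P29 room air and 5.33 to 5.58 in P29 hyperoxia. At P14 it was 5.36 to 5.54 in room air and 5.08 to 5.14 in hyperoxia. Lep and Pck1 were below the brightness filter on all arrays, between 3.36 and 4.58. The part of fat cells in the values of Scd1, Fasn and the other members was not tested. Thrsp, a lipogenic protein abundant in fat, was at 7.01 and 7.11 in P14 room air, 6.65, 6.89 and 6.74 in P14 hyperoxia, 7.10 and 7.09 in P29 room air, and 6.75, 6.75 and 6.76 in P29 hyperoxia on its brightest probe set, a difference of -0.30 and -0.35. Its 2 dimmer probe sets rose with age in room air by 1.63 and 3.37 and differed between hyperoxia and room air at P29 by -1.36 and -1.91, both called. At P14 the probe sets of Thrsp were called in opposite directions on hyperoxia, and the mean of all of them gave 0.14. With age in hyperoxia a dimmer probe set was called higher, while the brightest gave -0.01 and was not called.

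Scd2, the desaturase isoform widely expressed in developing tissue, was at 12.63 and 12.66 in P14 room air, 12.95, 12.90 and 12.86 in P14 hyperoxia, 13.09 and 13.19 in P29 room air, and 13.05, 12.88 and 13.06 in P29 hyperoxia. The brightest probe set was higher in hyperoxia at P14 (0.26 ± 0.08, adjusted p = 0.0202) and the effects differed by -0.40 ± 0.12 (adjusted p = 0.0301), whereas the 2 other probe sets gave -0.51 and -2.02 at P14. At P29 these 2 gave -1.17 and -2.39, both called, where the brightest gave -0.14 and was not called. Their differences of effects, -0.66 and -0.38, were not called. On the brightest probe set the call of the difference was lost in 6 of 10 fits without 1 array, with -0.34 without P29 hyperoxia replicate 2. Elovl1 was at 11.52 and 11.54, then 11.57, 11.47 and 11.54 at P14, and at 12.45 and 12.46, then 12.36, 12.11 and 12.14 at P29, room air first. It rose with age by 0.92 ± 0.10 in room air and 0.67 ± 0.08 in hyperoxia (adjusted p = 2.02e-05 and 0.000145), and all 4 of its probe sets were called higher with age in both.

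Elovl6, which elongates palmitate, was at 6.99 and 7.33 in P14 room air, 6.69, 6.92 and 6.95 in P14 hyperoxia, 7.24 and 6.99 in P29 room air, and 7.35, 7.44 and 7.37 in P29 hyperoxia. Its effects differed by 0.58 ± 0.17 (adjusted p = 0.0313), a call lost in 5 of 10 fits without 1 array and equal to 0.41 without P14 room air replicate 2; 1 of its other probe sets gave 0.85 and the other 0.06. Fads1 and Fads2, the desaturases of polyunsaturated chains, both rose with age in room air (0.59 ± 0.11 and 0.49 ± 0.12). Fads1 was at 9.59 and 9.84, then 9.86, 10.12 and 10.08 at P14, and at 10.28 and 10.32, then 10.48, 10.37 and 10.46 at P29. Its probe sets gave 0.31 and -0.60 for hyperoxia at P14, both called. Fads2 was at 8.53 and 8.44, then 8.31, 8.41 and 8.29 at P14, and at 8.83 and 9.13, then 8.81, 8.62 and 8.57 at P29. Its 3 probe sets gave -0.31, 0.57 and -0.86 for hyperoxia at P29, all called. The brightest probe set of Fads1 at P14 gave 0.18 without P14 room air replicate 1, 0.25 without P14 hyperoxia replicate 2 and 0.28 without P14 hyperoxia replicate 3, not called. That of Fads2 at P29 gave -0.17 without P29 room air replicate 2, -0.29 without P29 hyperoxia replicate 2 and -0.27 without P29 hyperoxia replicate 3, not called.

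Acly, which makes cytosolic acetyl-CoA from citrate, was at 10.38 and 10.72, then 10.60, 10.61 and 10.80 at P14, and at 10.82 and 10.90, then 10.86, 10.81 and 10.97 at P29. Its brightest probe set was called in no comparison, while the 2 others gave -0.53 and -1.17 at P14 and -0.67 and -1.50 at P29 for hyperoxia, all called.

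The counts of other pathway genes are given beside the shares of all genes, 32.3% higher and 22.8% lower in hyperoxia at P14 and 34.2% and 25.6% at P29. Of the 10 measured genes of SREBP processing, 7 were higher in hyperoxia at P14 and 5 at P29, with none lower. Sec23a and Sec24d, coat proteins of the vesicles that leave the endoplasmic reticulum, were higher at P29 by 0.93 ± 0.10 and 0.53 ± 0.08. The list also holds Insig2, of the INSIG proteins that hold the complex back, so its counts give no direction for SREBP activity. Mean log2 values of Insig2 were 9.06 in room air and 9.49 in hyperoxia at P14, and 9.5 and 9.65 at P29. Of 10 measured genes of the isoprenoid branches, 5 and 6 were higher and none lower, with Pdss2, a subunit of the synthase of the ubiquinone side chain, at 1.20 ± 0.13 and Nus1, of dolichol synthesis, at 0.61 ± 0.08 at P29. Of 13 measured genes of sterol efflux, uptake and storage, 5 rose at P14, a share near that of all genes, and 5 fell, while 2 rose and 8 fell at P29; Scarb1, the receptor for high-density lipoprotein, was lower at P29 by 1.08 on the log2 scale. Mylip, an LXR target that marks lipoprotein receptors for degradation, was lower at P29 by 1.06 and higher at P14 by 0.26.

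Of 23 measured partners of fatty acid synthesis, 11 rose and 3 fell at P14, and 11 rose and 7 fell at P29, a share lower that is near the 25.6% of all genes; Tecr, the last reductase of chain elongation, was lower at P29 by 1.22 on the log2 scale and Elovl4, an elongase of very long chains, higher by 1.72 ± 0.11. Elovl4 was between 4.02 and 4.23 on the room air arrays and reached a log2 of 5 on hyperoxia arrays alone. It passed the filter only through the exposure in which it was high. With age in room air, 15 of the 23 were higher and 1 lower, where 22.2% and 19.1% of all genes were. Of 17 genes of phosphatidylcholine synthesis, 7 rose and 2 fell in hyperoxia at P14, and 5 rose and 5 fell at P29, shares near those of all genes, while 8 rose and 0 fell with age in room air, where 22.2% of all genes were higher; Lpin1, a phosphatidate phosphatase, was lower in hyperoxia at P29 by 0.91 and Agpat5, an acyltransferase, higher by 0.64 ± 0.07.

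Markers of other cell types also differed between the groups; in hyperoxia 22.8% of all genes were lower at P14 and 25.6% at P29. Of 10 measured type 2 cell markers, 6 were lower in hyperoxia at P14 and 7 at P29, with none higher, and 7 were higher with age in room air; their mean per array was 12.44 to 12.56 in P14 room air, 11.82 to 12.11 in P14 hyperoxia, 13.02 to 13.03 in P29 room air and 12.17 to 12.42 in P29 hyperoxia. Macrophage markers (7 of 7 measured) were higher with age for 6 genes in room air, higher for 1 and lower for 3 in hyperoxia at P14, and lower for 5 at P29, with means of 8.01 to 8.25, 7.26 to 7.71, 9.23 to 9.35 and 8.30 to 8.68 in the same order. The 4 measured genes of proliferating cells were all lower with age in room air and all higher in hyperoxia at P29, with means of 9.0 to 9.34, 9.58 to 9.99, 6.37 to 6.73 and 9.31 to 9.41. Of 5 markers of lipid-laden fibroblasts, 4 were lower and 0 higher in hyperoxia at P14, and 3 were lower and 1 (Tcf21) higher at P29. Both measured brown fat markers (Cidea, Dio2) were higher in hyperoxia at each age while Ucp1, which defines that cell, lay between 3.96 and 4.63 on all arrays. Of the 5 lung markers, 2 were higher and 1 lower at P14, and 1 was higher and 2 lower at P29. The P14 shares, 40% and 20%, are near those of all genes. Of 3 measured liver markers 1, Apoa1, was lower at each age, a share of 33.3% beside 22.8% and 25.6% of all genes. The part of these cell types in the results was not tested.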

How the data were processed

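RNA of 10 mouse lung samples, grouped by the titles' age and exposure, was measured on Affymetrix mouse arrays. The deposited values are log2 expression, made by the authors with Partek 6.4 and GCRMA per the submitters' processing notes; its further settings were not given in the sources. The precision is limited by the number of arrays.

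Of 45101 probe sets, 34958 had 1 gene symbol in the platform annotation, 932 several and 9211 none; 34741 of those with 1 symbol matched RefSeq by gene ID and no symbol changed. The brightest probe set stood for each of 18193 genes, and 14988 genes passed the filter (log2 of 5 or more on 2 arrays). One model of 4 group means over 10 arrays was fitted with limma 3.58.1 in R 4.3.3 (lmFit, eBayes, residual df 6, prior df 5.09), with 5 contrasts, two-sided, and Benjamini-Hochberg adjustment over all genes kept (call at 0.05). The procedure was tested on simulated data. Named were the regulators and up to 4 members of smallest p per group and hyperoxia contrast (2 per age contrast). Members with another probe set called against the sign of their brightest, itself called or not, were also named. From each other pathway list, up to 2 genes at P29 were named. Members, lists and tests were chosen with earlier results of these data known. Alternatives covered the filter, probe set choice, normalization, variance model, array weights, arrays fitted, replicate number, actin and Y-linked terms, threshold and each array left out. Calls on every bright probe set and the sex-matched P29 array were added after seeing the data. Some genes of these pathways are not reported here.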

Additional observations from a re-analysis of the deposited data

Results flagged for a closer look

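The hyperoxia effect differed between the ages for 11 members, 3 higher and 8 lower of 34 measured. This was the test of the difference itself in the limma fit (effect at P29 minus effect at P14, log2 scale, adjusted p under 0.05 over all genes). Of all genes, 11% were higher and 11.6% lower. The share of members higher, 8.82%, is near that of all genes, and the share lower was 23.5%. Among the sterol enzymes the difference was -0.58 for Idi1, -0.73 for Msmo1 and 0.81 for Hsd17b7. Among the regulators it was -0.42 for Srebf1 and 0.57 for Stard4. Among the fatty acid genes it was -0.68 for Acaca, -0.69 for Scd1, -0.40 for Scd2, -0.64 for Elovl5, 0.58 for Elovl6 and -0.78 for Acss2. The differences of Msmo1, Acaca, Elovl5 and Acss2 were called in each of the 10 fits that left out 1 array; the other 7 were lost in 1 or more of them.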

How the results depend on the processing

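Of 86 called values of named members, 55 were called in every fit without 1 array and 31 were lost in at least 1, with no reversal. Over 1922 alternative values, 1640 kept direction and call, 271 lost the call and 11 reversed. The groups hold 2 or 3 arrays, a lone array left in a group is assumed to vary like the others, and the actin control and sex-linked pattern differ with the groups; causes were not tested. Comparing only the groups of a contrast was not run for the difference of effects.

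Counts below are of genes called, and counts in parentheses are those reported. On each array's 75th percentile, 3 fatty acid genes were higher at P14 (5) and 2 sterol enzyme genes at P29 (5). Quantile normalization gave 2 sterol enzyme genes higher at P29 (5) and 3 fatty acid genes lower in the difference of effects (5). With the sex-matched P29 array, 2 sterol enzyme and 1 fatty acid genes were higher at P29 (5, 0), 1 sterol enzyme gene was lower (2) and 0 fatty acid genes higher (1) in the difference, and 5 and 4 were higher with age in hyperoxia (13, 7). With the Y-linked term, 1 fatty acid gene was higher at P29 (0), the difference held 1 sterol enzyme gene lower (2) and 0 fatty acid genes higher (1), and 6 and 8 sterol enzyme genes were higher with age in room air and hyperoxia (11, 13).

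With the actin term, sterol enzyme genes were 0 higher and 3 lower at P14 (5, 6) and 0 and 5 at P29 (5, 8), and fatty acid genes were 1 and 0 at P14 (5, 3) and 0 lower at P29 (5). At an adjusted p under 0.01, fatty acid genes were 3 higher and 0 lower at P14 (5, 3) and 3 lower at P29 (5), sterol enzyme genes were 2 higher at P29 (5), the difference held 0 and 1 sterol enzyme and 0 and 3 fatty acid genes (1, 2, 1, 5), and 7 sterol enzyme genes were higher with age in hyperoxia (13). With a fold of 1.5 or more as well, sterol enzyme genes were 2 higher at P14 (5) and 1 and 3 at P29 (5, 8), fatty acid genes 2 and 0 at P14 (5, 3) and 2 lower at P29 (5), the difference held 1 sterol enzyme gene lower (2) and 0 fatty acid genes higher (1), and 7 and 2 sterol enzyme and 2 fatty acid genes were higher with age in room air and hyperoxia (11, 13, 7).

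Called on every bright probe set were 3 sterol enzyme genes higher at P14 (5) and 2 and 5 at P29 (5, 8), 2 and 1 fatty acid genes at P14 (5, 3) and 3 lower at P29 (5), 0 and 0 sterol enzyme and 0 and 2 fatty acid genes in the difference, 7 and 0 sterol enzyme and 5 fatty acid genes with age in room air (11, 1, 9), and 6 and 3 in hyperoxia (13, 7). The mean of all probe sets gave 2 fatty acid genes higher at P14 (5), 1 and 10 at P29 (0, 5), 3 sterol enzyme genes higher at P29 (5) and 0 lower in the difference (2); it reversed Fdft1 (-0.05 at P14, -0.08 at P29), Msmo1 at P29 (0.04), and Scd2 (-0.75), Fads1 (-0.15) and Thrsp (0.14) at P14. The probe set of largest variance gave 3 and 7 fatty acid genes at P14 (5, 3) and 2 and 9 at P29 (0, 5), and 0 sterol enzyme genes higher in the difference (1), 0 lower with age in room air (1) and 8 higher in hyperoxia (13); it reversed Lss with age in hyperoxia (-0.01), Hsd17b7 at P29 (-0.57), and Scd2 (-2.02), Fads1 (-0.60) and Thrsp (0.59) at P14.

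The stricter filter and the trend and robust fit each gave 1 fatty acid gene higher at P29 (0), and the fit of the compared groups gave 1 higher and 3 lower (0, 5). Replicate numbers did not pair the arrays: same-numbered arrays of different groups correlated at -0.099 to 0.197, with 2 of 13 pairs over 0.1. The fit with the replicate number as a block gave 1 fatty acid gene lower at P14 (3).

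Leaving out 1 array gave 1 to 5 sterol enzyme genes higher at P14 and 2 to 5 at P29, 3 to 5 fatty acid genes higher and 0 to 3 lower at P14, and 0 to 2 higher and 3 to 6 lower at P29. The difference of effects held 0 to 2 sterol enzyme genes higher and 1 to 3 lower, and 0 to 1 fatty acid genes higher and 3 to 5 lower. Sterol enzyme genes higher with age were 7 to 12 in room air and 8 to 13 in hyperoxia.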
